A study of Mus musculus with 130 samples.

Results

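Hmox1, Blvra, Blvrb, Hpx, Hp, Cd163, Slc48a1 and Flvcr1, 8 genes of the scavenging, transport and breakdown of heme, were taken by name from the liver expression tables. They are 8 of the 35274 genes in the tables of the diet study and 8 of the 35711 in the tables of the strain panel, and all 8 passed the filter on low counts in both. In the diet study, male C57BL/6J mice, 3 per group, were fed 1 of 5 diets: chow, 50 ppm iron (sufficient), 500 ppm iron (elevated), 2% carbonyl iron, which is 20000 ppm, and 2% carbonyl iron with cellulose as the fiber source. The diet labels name no fiber source for the other diets. Comparisons of the cellulose group with 50 ppm may thus differ in fiber as well as in iron, and these cannot be told apart. In the panel, males of 114 inbred strains had 4 weeks of chow and then 6 weeks of the 2% diet. Recombinant inbred families made up most of it (56 strains of BXD, 20 of AXB/BXA, 4 of BXH, 3 of CXB), beside 31 strains outside these families. Each strain is represented by a single mouse, and 129X1/SvJ by 2. One BXD line, BXD24/TyJ-Cep290<rd16>/J, carries the rd16 allele of Cep290. Each library came from 1 piece of the large liver lobe of 1 mouse. Every panel mouse received the 2% diet, so the panel has no low-iron arm, and a difference between strains cannot be told apart from a difference between single mice. Neither ages nor the feeding time of the diet study are given in the labels.

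Heme set free from red cells is toxic, and the body keeps it bound. Haptoglobin (Hp) holds free hemoglobin in plasma and hemopexin (Hpx) holds free heme, both secreted by hepatocytes, and the macrophage receptor CD163 takes up the haptoglobin-hemoglobin complex. Inside the cell, SLC48A1 (HRG1) moves heme out of the phagolysosome and FLVCR1 exports heme. Heme oxygenase 1 (Hmox1) opens the ring to biliverdin, iron and carbon monoxide, and biliverdin reductase A (Blvra) turns this biliverdin into bilirubin. Blvrb encodes biliverdin reductase B, also known as flavin reductase. In the liver most red cell heme is handled by resident macrophages, the Kupffer cells, and heme oxygenase 1 is induced by heme and by oxidative stress.

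On GRCm38, Hmox1 (ENSMUSG00000005413) lies on chromosome 8 at 75093621 to 75100589, and Hp (ENSMUSG00000031722) on the same chromosome at 109575128 to 109579172. Hpx (ENSMUSG00000030895) and Blvrb (ENSMUSG00000040466) lie on chromosome 7, at 105591613 to 105600137 and at 27447978 to 27466144. Blvra (ENSMUSG00000001999) lies on chromosome 2 at 127070665 to 127097084 and Cd163 (ENSMUSG00000008845) on chromosome 6 at 124304656 to 124330527. Slc48a1 (ENSMUSG00000081534) lies on chromosome 15 at 97778520 to 97792692 and Flvcr1 (ENSMUSG00000066595) on chromosome 1 at 191005847 to 191026158. All 8 are annotated as protein-coding, and the counts are per whole gene.

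Total counts per library, in units of 1000000, ran from 10.4 to 20.4 in the diet study and from 9.41 to 20.57 in the panel. The deepest diet library, replicate 2 of the 500 ppm group, stood apart from its group. Its Hmox1 level was 44.7 CPM (counts scaled by library size), against 7.14 and 9.49 CPM in its group mates, and its Hpx level was 3267 CPM against 1868 and 1595 CPM. In the same library the summed level of 12 Kupffer cell genes was 323 CPM against 165 and 210 CPM, and that of 15 acute phase genes was 21531 CPM against 15274 and 13392 CPM. The counts of calls against the 500 ppm group, and the members named there, are therefore given with and without it. In the panel, the library labelled BXD65/RwwJ had 3.94 CPM summed over Y-linked genes, against 118 to 328 CPM in all others, which goes against its label as a male. The 8 hepatocyte genes used as a check, Apoa1 and Ttr among them, were detected in every library of both studies.

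Promoter sequences of the genes that rose with iron, and of Blvrb, which did not, are shown because they let the members be set side by side at the sequence level. Of the 8 members, 5 had an entry in the RefSeq promoter set (GRCm38.p6), namely Blvra, Blvrb, Hpx, Cd163 and Flvcr1. Hmox1, Hp and Slc48a1 did not match. The 250 bases before the RefSeq start were searched on both strands for TGANNNNGC, TTGCNNAA (C/EBP) and TTCNNNGAA (STAT). TGANNNNGC is a loose form of the core of the antioxidant response element, which is bound by NRF2 and BACH1. Capitals mark the matches in these sequences, printed 5′ to 3′ on the strand of the gene. They are Hpx at chr7:105600117-105600366 (minus strand), Cd163 at chr6:124304401-124304650 (plus strand) and the first of the entries of Blvrb at chr7:27447728-27447977 (plus strand).
Hpx: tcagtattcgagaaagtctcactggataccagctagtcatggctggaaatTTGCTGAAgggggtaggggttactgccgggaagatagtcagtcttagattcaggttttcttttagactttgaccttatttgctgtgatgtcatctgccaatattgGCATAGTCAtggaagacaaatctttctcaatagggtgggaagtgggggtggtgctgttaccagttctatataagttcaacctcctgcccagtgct
Cd163: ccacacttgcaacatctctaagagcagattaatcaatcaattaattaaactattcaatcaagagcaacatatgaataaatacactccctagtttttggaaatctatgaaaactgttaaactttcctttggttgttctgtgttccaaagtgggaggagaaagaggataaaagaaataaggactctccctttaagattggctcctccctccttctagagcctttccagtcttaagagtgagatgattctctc
Blvrb: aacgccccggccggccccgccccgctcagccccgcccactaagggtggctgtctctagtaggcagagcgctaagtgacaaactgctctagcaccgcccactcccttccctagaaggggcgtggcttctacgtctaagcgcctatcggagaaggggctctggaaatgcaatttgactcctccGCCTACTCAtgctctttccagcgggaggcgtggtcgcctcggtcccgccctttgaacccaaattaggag
The Hpx sequence held a TTGCNNAA match in the upstream part of the window (first base at -200 from the start), a motif found in 9.56% of 32851 promoters, and a TGANNNNGC match at -95. The Cd163 sequence held none of the motifs, and its GC content was 36.8%. That of Hpx was 44.8% and that of Blvrb 62.0%. TGANNNNGC was also present in Blvra, Blvrb and Flvcr1 and in 35.2% of all promoters, while TTCNNNGAA, present in 7.02%, was found in none of the 5 members. A match describes the letters only.

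The first comparison asked how 2% iron changed these genes against the 50 ppm diet. Hmox1, Cd163, Hpx and Slc48a1 rose, by 5.14-fold, 2.57-fold, 1.75-fold and 1.34-fold in the means fitted by edgeR's quasi-likelihood test, while Hp, Blvra, Blvrb and Flvcr1 did not pass. The 4 of 8 members called, all higher, stand beside 15.7% of all 13560 genes called in either direction and 8.52% called higher. The median log2 change of the 8 members was 0.52, against 0.01 over all genes tested. The 3 mice on 2% iron did not overlap the 3 on 50 ppm in 5 of the 8 members, against 36.8% of all genes. These are levels in bulk tissue, in which more cells of a type and more RNA per cell cannot be told apart.

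**Figure D1:**
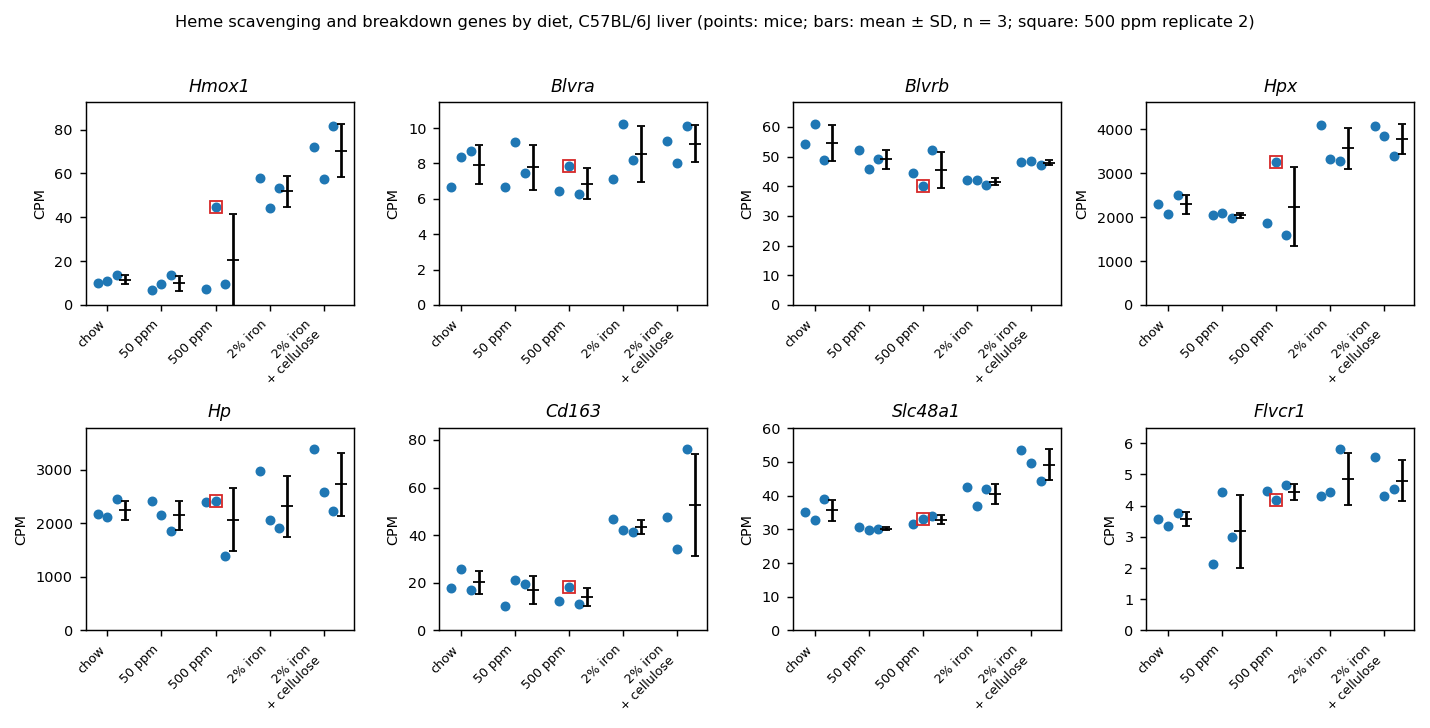
CPM (linear axis from 0) of the 8 genes in each of 15 C57BL/6J mice on 5 diets, with points for mice and bars for mean ± SD (n = 3; the lower bar of Hmox1 at 500 ppm runs below 0 and is truncated there). The red square marks 500 ppm replicate 2, whose Hmox1 (44.7 CPM) lies in the range of the 2% iron mice (44.003 to 57.8 CPM).

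The secreted scavengers Hpx and Hp differed in their response. Hpx, the plasma carrier of free heme, measured 2045, 2095 and 1991 CPM in the mice on 50 ppm and 4096, 3334 and 3271 CPM in those on 2% iron. The groups did not overlap, and the log2 change was 0.80 (SE 0.21, adjusted p = 0.0203). It was 4073, 3859 and 3402 CPM on 2% iron with cellulose and 2295, 2067 and 2509 CPM on chow, so both 2% groups lay above both of these diets in every mouse. Against chow the log2 change was 0.64 (SE 0.21, adjusted p = 0.0408), but this call was lost when any 1 of the 6 mice was left out (adjusted p from 0.0591 to 0.143). Against 50 ppm it was lost without 2% iron replicate 1 (0.0794) and without 50 ppm replicate 1 (0.0703), 2 (0.0508) or 3 (0.0584). The call of 2% iron with cellulose against 50 ppm (log2 change 0.89, SE 0.21, adjusted p = 0.00677) held in all 13 alternatives.

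Hp, the carrier of free hemoglobin, measured 2412, 2159 and 1859 CPM on 50 ppm and 2967, 2062 and 1911 CPM on 2% iron. These mice overlapped, and the log2 change of 0.11 (SE 0.22, adjusted p = 0.791) did not pass. Hp did not pass with cellulose either, at 0.35 (SE 0.22, adjusted p = 0.263), where the mice measured 3375, 2582 and 2226 CPM. Chow mice had 2168, 2111 and 2447 CPM, and 500 ppm mice 2392, 2411 and 1392 CPM. In TPM, a measure scaled for transcript length that allows genes to be compared, the ratio of Hpx to Hp was 0.692, 0.774 and 0.856 in the 50 ppm mice and 0.859, 0.785 and 0.823 on chow. It was 1.122, 1.31 and 1.35 on 2% iron and 0.986, 1.20 and 1.22 with cellulose. Hp was thus the more abundant transcript in all 6 mice on 50 ppm or chow, and Hpx in 5 of the 6 mice on either 2% diet. At 500 ppm the ratio was 0.622 and 0.926 in replicates 1 and 3 and 1.115 in replicate 2. Together Hpx and Hp took 0.398% to 0.422% of all counts on 50 ppm and 0.525% to 0.717% on 2% iron.

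Cd163, the macrophage receptor for haptoglobin-hemoglobin complexes, measured 10.2, 21.1 and 19.3 CPM on 50 ppm and 46.8, 42.05 and 41.3 CPM on 2% iron. Every 2% mouse lay above every mouse on 50 ppm, and the log2 change was 1.36 (SE 0.30, adjusted p = 0.00899), a call kept in all 13 alternatives. The levels were 17.8, 25.8 and 17.1 CPM on chow and 12.5, 18.4 and 11.1 CPM on 500 ppm. Cellulose mice had 47.5, 34.3 and 76.0 CPM, the widest spread of any group for this gene (SD 21.3 CPM). Against chow the change was 1.10 (SE 0.30, adjusted p = 0.0165), which was lost without 2% iron replicate 1 (0.0507), chow replicate 1 (0.0636) or chow replicate 3 (0.0621).

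All 12 of the Kupffer cell genes, such as Clec4f, Vsig4 and Timd4, rose in 2% iron against 50 ppm, with a median log2 change of 1.63, above the 1.36 of Cd163. Their summed level was 182 to 293 CPM on 50 ppm and 708.9 to 766 CPM on 2% iron. Cd163 amounted to 5.61% to 8.91% of that sum on 50 ppm, 5.71% to 6.12% on 2% iron, 4.65% to 7.16% with cellulose and 6.85% to 11.2% on chow. Relative to these genes, Cd163 on 2% iron overlapped the 50 ppm mice and lay below the chow mice.

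Slc48a1, the phagolysosomal heme transporter, had the smallest spread relative to its mean of the members within the 50 ppm group, at 30.6, 29.8 and 30.1 CPM. It measured 42.5, 37.1 and 41.99 CPM on 2% iron and 53.5, 49.7 and 44.4 CPM with cellulose. Each 2% mouse lay above each 50 ppm mouse, and the log2 change was 0.43 (SE 0.09, adjusted p = 0.00642), or 0.71 (SE 0.09, adjusted p = 1.49e-04) with cellulose. Both calls held in all 13 alternatives. Chow mice, at 35.3, 32.8 and 39.04 CPM, lay between, and overlapped the 2% mice; 500 ppm mice had 31.5, 33.1 and 34.1 CPM. Slc48a1 against chow did not pass (0.18, SE 0.09, adjusted p = 0.158).

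Flvcr1, the heme exporter, was the lowest of the members, at 2.13, 4.45 and 2.98 CPM on 50 ppm and 4.31, 4.44 and 5.80 CPM on 2% iron. Its change of 0.61 (SE 0.22, adjusted p = 0.0845) did not pass. It passed without 50 ppm replicate 2 (0.91, adjusted p = 0.0167), the 50 ppm mouse with the highest level. With cellulose, where the mice had 5.55, 4.32 and 4.54 CPM, the change of 0.59 (SE 0.22, adjusted p = 0.0607) did not pass either; it passed without 50 ppm replicate 2 (0.90, adjusted p = 0.0101) and with limma (adjusted p = 0.0217 and 0.0277). Chow mice had 3.57, 3.36 and 3.78 CPM and 500 ppm mice 4.48, 4.17 and 4.67 CPM.

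Hmox1, the inducible heme oxygenase, measured 6.78, 9.67 and 13.6 CPM on 50 ppm, 10.2, 10.8 and 13.7 CPM on chow, 57.8, 44.003 and 53.5 CPM on 2% iron and 71.8, 57.6 and 81.7 CPM with cellulose. Both 2% groups lay apart from chow and 50 ppm, and they overlapped each other. The log2 change against 50 ppm was 2.36 (SE 0.52, adjusted p = 0.00842) on 2% iron and 2.80 (SE 0.52, adjusted p = 0.00164) with cellulose, and both calls held in all 13 alternatives. Against chow it was 2.15 (SE 0.51, adjusted p = 0.0082). Hmox2 encodes the constitutive heme oxygenase, and its log2 change of 0.23 (SE 0.09, adjusted p = 0.11) in 2% iron against 50 ppm did not pass. In TPM, Hmox1 stood at 0.0904 to 0.218 of the Hmox2 level on 50 ppm, 0.162 to 0.314 on chow, 0.716 to 0.885 on 2% iron and 1.003 to 1.17 with cellulose. The 2 heme oxygenase transcripts were thus closest in level on the iron-loaded diets. As a percentage of the summed Kupffer gene level, Hmox1 was 3.74% to 4.64% on 50 ppm, 4.70% to 5.51% on chow, 5.97% to 7.56% on 2% iron and 7.69% to 9.13% with cellulose. Unlike Cd163, it did not overlap between 2% iron and 50 ppm on this scale, and 500 ppm replicate 2 had 13.8%, the highest of the 15 mice.

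The biliverdin reductases did not rise. Blvrb, biliverdin reductase B, also known as flavin reductase, measured 54.3, 60.95 and 48.8 CPM on chow, 52.1, 45.8 and 49.3 CPM on 50 ppm, 42.2, 42.1 and 40.3 CPM on 2% iron and 48.1, 48.6 and 47.1 CPM with cellulose. The 2% mice lay below all chow and 50 ppm mice and overlapped the 500 ppm mice, which had 44.6, 40.1 and 52.1 CPM. Blvrb fell against chow by 0.40 on the log2 scale (SE 0.10, adjusted p = 0.0117), and the change of -0.24 (SE 0.10, adjusted p = 0.123) against 50 ppm did not pass. The fall was lost without chow replicate 2 (adjusted p = 0.0564) and with limma on log2(TPM + 1) (log2 change -0.22, adjusted p = 0.171), which raised the median of all genes by 0.11 in that comparison. With cellulose the change against 50 ppm was -0.04 (SE 0.10, adjusted p = 0.823). Blvra, biliverdin reductase A, ranged from 6.26 to 10.2 CPM over all 15 mice, and its changes of 0.13 (SE 0.17, adjusted p = 0.664) against 50 ppm and 0.10 (SE 0.17, adjusted p = 0.733) against chow did not pass.

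**Figure D2:**
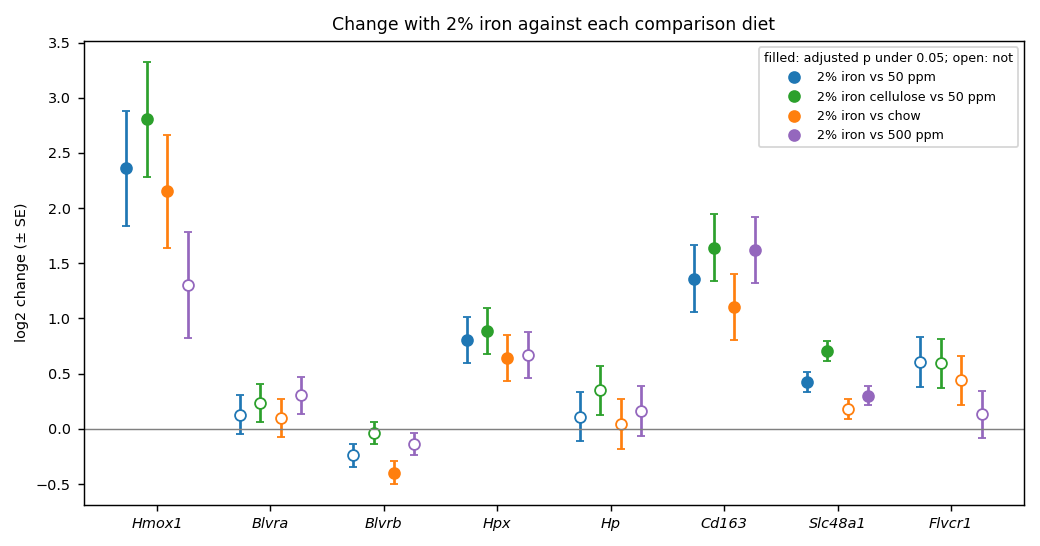
Log2 change (points; bars are ± SE from the edgeR fit) of the 8 genes for 4 comparisons of a 2% diet, in colour. Filled points passed an adjusted p of 0.05. Hmox1 reached 2.36 and 2.80 against 50 ppm, and Blvra, Hp and Flvcr1 passed in none.

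Ordered by mean TPM on 50 ppm, the members ran Hp (1980), Hpx (1529), Blvrb (71.5), Slc48a1 (12.7), Blvra (9.37), Hmox1 (7.26), Cd163 (4.38) and Flvcr1 (0.942). Hmox1 and Blvra did not differ beyond their spread there (SD 2.97 and 2.87 TPM). On 2% iron the order was Hpx (2787), Hp (2248), Blvrb (64.0), Hmox1 (38.6), Slc48a1 (17.7), Cd163 (11.8), Blvra (10.3) and Flvcr1 (1.36). In every mouse, Hmox1 lay below Slc48a1 on 50 ppm and above it on 2% iron, while Cd163 and Blvra lay within their spread of each other (SD 1.21 and 2.15 TPM).

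The comparisons with chow, with cellulose and with 500 ppm share mice with the one above and are not independent of it. Against chow, 4 of 8 members were called, Hmox1, Hpx and Cd163 higher and Blvrb lower, beside 22.8% of all genes. In 2% iron with cellulose against 50 ppm, 4 of 8 were called, all higher, beside 29.7% of all genes in either direction and 15.4% higher. Between the 2% diet labelled with cellulose and the 2% diet with no fiber named, none of 8 members was called, beside 0.0811% of all genes. DESeq2 and limma also called none there. An unadjusted p under 0.05 was found for 1 member, Slc48a1 (0.28, SE 0.09, adjusted p = 0.204), beside 1757 of 13560 genes, and its groups did not overlap. Blvrb, at 0.21 (SE 0.10, adjusted p = 0.41), did not overlap either.

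Between 500 and 50 ppm, none of 8 was called, beside 0% of all genes, 428 of which had an unadjusted p under 0.05 (0 of them members), and DESeq2 and limma called none of the members. Without 500 ppm replicate 2 none was called either. The Hmox1 value of 1.06 (SE 0.52, adjusted p = 1) rested on replicate 2 of the 500 ppm group and was -0.27 without it. Hpx was 0.13 (SE 0.21) with that library and -0.24 without it. Between chow and 50 ppm none of 8 was called, beside 0.391% of all genes, and none by DESeq2 or limma. The unadjusted p was under 0.05 for 1 member (Slc48a1, 0.24, SE 0.09, adjusted p = 0.339), beside 1408 of 13560 genes. Between 2% iron and 500 ppm, Cd163 (1.62, SE 0.30, adjusted p = 0.00432) and Slc48a1 (0.30, SE 0.09, adjusted p = 0.0409) rose, 2 of 8 beside 11.3% of all genes and 6.59% called higher. Without 500 ppm replicate 2, 3 of 8 were called, Cd163 (1.88, adjusted p = 0.00286), Hmox1 and Hpx, and Slc48a1 was 0.30 (adjusted p = 0.0612). The shares of all genes are from the fit with all mice, and none was taken without that library. The call of Slc48a1 was lost in 9 of 12 alternatives (adjusted p from 0.0345 to 0.151 over all). Hmox1 did not pass there, at 1.2998 (SE 0.48, adjusted p = 0.0978), and passed at 2.63 (adjusted p = 6.56e-05) without 500 ppm replicate 2. Hpx likewise went from 0.67 (adjusted p = 0.0545) to 1.04 (adjusted p = 5.08e-04).

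Of 21 other genes of heme handling, 2 rose and 3 fell in 2% iron against 50 ppm, with a median log2 change of -0.18. Slc40a1, the iron exporter ferroportin, rose by 1.54 (SE 0.16, adjusted p = 1.26e-04), and Ftl1, ferritin light chain, by 1.32 (SE 0.12, adjusted p = 8.49e-05), whose reads may be shared with pseudogene copies. The genes that fell were Slc46a1, a folate and heme importer (-0.62), Abcb6, a porphyrin transporter (-0.53), and Slco1b2, a hepatocyte uptake transporter of organic anions (-0.84). The transcription factors Bach1 (0.06, adjusted p = 0.815) and Nfe2l2 (0.21, adjusted p = 0.38), which regulate Hmox1, did not pass. Of the 8 genes of heme synthesis only Alad passed, lower by -0.52 (SE 0.11, adjusted p = 0.0059), and the list's median was -0.26. With cellulose, Alas1, the first enzyme of the pathway, rose by 1.45 (SE 0.41, adjusted p = 0.0174), while Alad, Urod and Uros fell.

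Of 15 NRF2 target genes, 4 rose and none fell in 2% iron against 50 ppm, with a median of 0.56, and 9 rose with cellulose, with a median of 0.69. Nqo1, a quinone reductase, rose by 1.46, Gstm3 by 1.59, Srxn1 by 0.76 and Gstm1 by 0.56 on 2% iron. Against chow the same list had 2 higher, 1 lower and a median of -0.26. In chow against 50 ppm it had 3 higher, 0 lower and a median of 0.24. The part of NRF2 in the Hmox1 changes was not tested. Of 15 acute phase genes, 3 rose (Cp 0.60, Apcs 1.35, Lcn2 2.76) and 2 fell (Saa1 -2.40 and Saa2 -2.27, near-identical copies that may share reads), with a median of 0.40. Their summed level was 13527 to 15888 CPM on 50 ppm and 16420 to 20987 CPM on 2% iron. Of 6 erythroid genes tested, 5 rose and Alas2 fell (-1.51). The summed erythroid level was 68.4 to 110 CPM on 50 ppm and 324 to 479 CPM on 2% iron, and up to 2 of its 9 genes were at 0 in a 50 ppm mouse. None of the 5 neutrophil genes tested passed, with a summed level of 1.36 to 2.49 CPM on 50 ppm, where up to 5 of 8 were at 0, and 6.13 to 14.6 CPM on 2% iron. With cellulose against 50 ppm, 4 of the 5 rose (Ltf 8.71, Ngp 6.78, S100a9 5.05 and S100a8 4.69, fitted values against counts at or near 0), with a summed level of 8.91 to 71.3 CPM. In that comparison all 12 Kupffer cell genes also rose, 5 of the 6 erythroid genes rose and 1 fell, and of the 15 acute phase genes 3 rose and 2 fell. Of the 8 hepatocyte genes 3 fell on 2% iron against 50 ppm (Cyp2e1 -1.07, Apoa1 -0.86 and Serpina1c -0.70). The part of these cells in the changes of the members was not tested.

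In the panel, the strains were compared on one diet. The panel tables were processed apart from those of the diet study, and levels are not compared across them by any test. Hmox1 ranged from 12.6 CPM in BXD34/TyJ through a median of 49.9 to 223 CPM in NOD/ShiLtJ, a 17.7-fold span, with BXD24/TyJ-Cep290<rd16>/J next at 179 CPM. Cd163 spanned 22.2-fold, from 4.93 CPM in SWR/J through a median of 37.03 to 109 CPM in BXD40/TyJ. Both genes had their lowest and highest strains far apart under the same diet. Hp spanned 19.1-fold, from 1054 CPM in BXA26/PgnJ through a median of 2702 to 20191 CPM in BXD48/RwwJ, and Hpx 7.84-fold, from 2191 CPM in BXD15/TyJ through 4250 to 17180 CPM in the same BXD48/RwwJ. The next strain for both was BXD27/TyJ, at 10281 CPM for Hp and 11321 CPM for Hpx.

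The other members varied less. Flvcr1 spanned 4.92-fold, from 2.20 CPM in BXD31/TyJ through a median of 5.02 to 10.8 CPM in NZB/BlNJ. Slc48a1 ran from 26.8 CPM in BXD38/TyJ through 44.6 to 92.3 CPM in BXH2/TyJ, and Blvrb from 28.4 CPM in I/LnJ through 45.03 to 79.1 CPM in BTBR T<+> tf/J. Blvra was the narrowest, from 6.05 CPM in BXD44/RwwJ through 9.04 to 13.7 CPM in BXD65/RwwJ, the library whose Y-linked genes go against its label. The SD of log2 CPM over strains was 2.64 times that within all 5 diet groups for Slc48a1, 2.43 times for Blvrb, 2.17 for Hp, 2.01 for Cd163, 1.86 for Hpx, 1.66 for Flvcr1 and 1.14 for both Hmox1 and Blvra. Against the spread within the 2% groups alone, which leaves out 500 ppm replicate 2, the order differed. It was then 9.26 times for Blvrb, 3.41 for Hmox1, 3.18 for Hpx, 2.15 for Slc48a1, 2.12 for Flvcr1, 2.08 for Cd163, 2.05 for Hp and 1.102 for Blvra. The Blvrb value rests on a very small SD within the 2% groups, 0.03 on the log2 scale, against 0.12 to 0.41 for the other members. Both measures rest on few C57BL/6J mice, in tables processed apart from the panel.

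**Figure D3:**
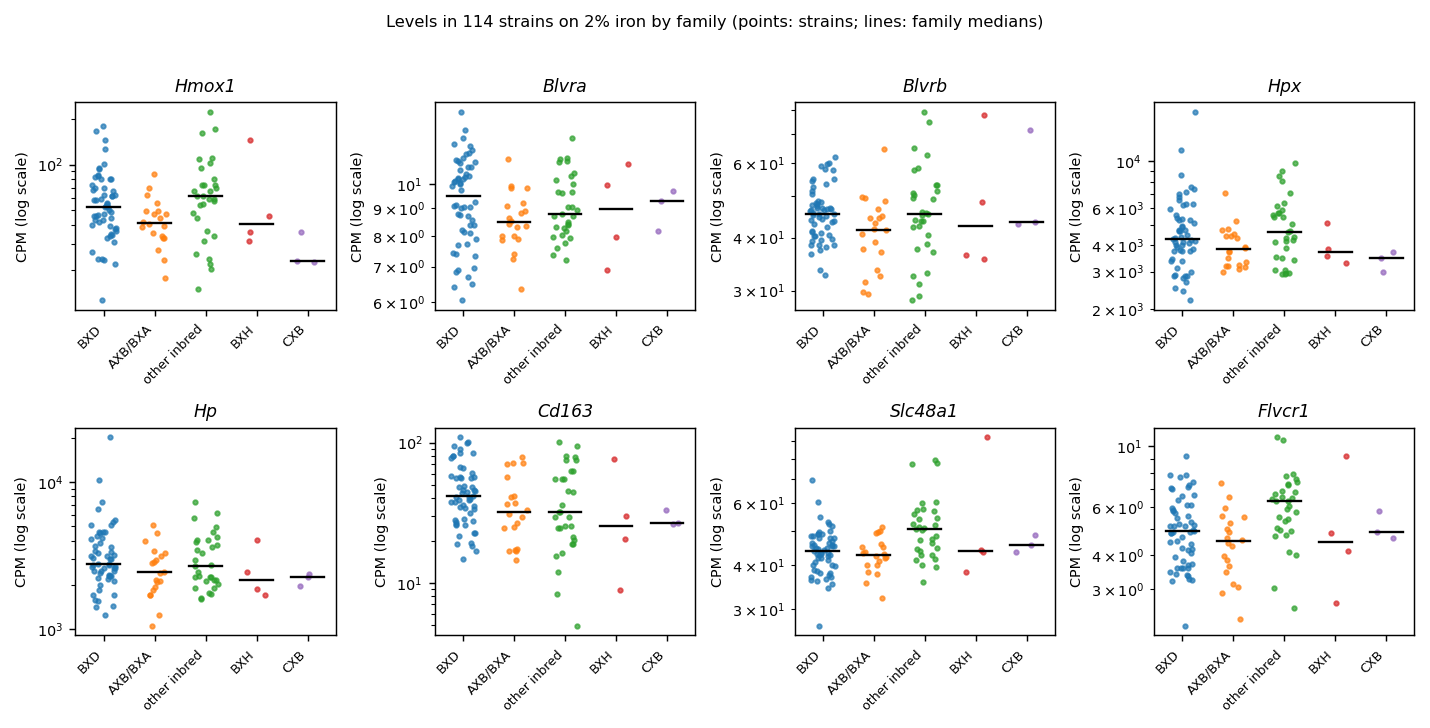
CPM (log axis) of the 8 genes in 114 strains on the 2% diet, by strain family, with points for strains and lines for family medians. Points of a family are spread sideways only for legibility; BXH2/TyJ stands above the other BXH strains in Hmox1 (145 CPM) and Slc48a1 (92.3 CPM).

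C57BL/6J, the strain of the diet study, measured 57.1 CPM Hmox1, 5663 CPM Hpx and 54.9 CPM Cd163 in its 1 panel mouse, with 47, 23 and 35 strains above it. DBA/2J, the other parent of the BXD strains, had 25.6 CPM Hmox1 with 100 strains above it, and 5446 CPM Hpx. A/J, the other parent of the AXB/BXA strains, had 36.2 CPM Hmox1, and it was low in Blvrb (31.04 CPM, 109 strains above) and Slc48a1 (35.8 CPM, 108 above). 129X1/SvJ is the 1 panel strain with 2 mice. They had 74.8 and 43.2 CPM Hmox1, 3492 and 2436 CPM Hpx, 21.04 and 21.5 CPM Cd163, and 57.7 and 57.5 CPM Slc48a1. The pair thus differed by 0.79 on the log2 scale in Hmox1, about the SD of that gene over strains, and by 0.01 in Slc48a1.

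Some strains were high in several members. NZB/BlNJ was among the 10 highest strains for 6 of the 8 genes, with 110 CPM Hmox1, 8528 CPM Hpx, 101 CPM Cd163, 78.1 CPM Slc48a1 and 10.8 CPM Flvcr1. NOD/ShiLtJ, BXD42/TyJ, BXD27/TyJ, BXH2/TyJ and BTBR T<+> tf/J were each among the 10 highest for 4. Marker sums of these strains differed. NZB/BlNJ had 1662 CPM of erythroid genes (4 strains above, median 184) and 48195 CPM of acute phase genes (3 strains above). NOD/ShiLtJ, highest in Hmox1, had 13.5 CPM of erythroid genes (103 strains above), 974 CPM of Kupffer cell genes (10 above) and 96.7 CPM of neutrophil genes (7 above). BXH2/TyJ had 1226 CPM of erythroid genes (10 above) and 365 CPM of Kupffer cell genes (105 above). BXD48/RwwJ, highest in Hp and Hpx, was also the highest strain in the acute phase sum (52915 CPM, median 20364), and BXD27/TyJ was next at 52580 CPM. Its related strain BXD48a/RwwJ had the lowest acute phase sum (9517 CPM) and 9.05-fold less Hp and 5.91-fold less Hpx, while the other 6 members were within 0.671-fold to 1.43-fold (BXD48 over BXD48a). SWR/J, lowest in Cd163, had a Kupffer sum of 295 CPM, with all but 1 of the other strains above it, and its Cd163 was 1.67% of that sum, the lowest share of any strain, against a median of 6.07%. In the panel, Hpx exceeded Hp in TPM in 98 of 114 strains, from 0.696 times Hp in BXD48/RwwJ to 2.29 times in BXA26/PgnJ.

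Families were compared next. Between BXD and AXB/BXA strains none of 8 members was called, beside 11.6% of all genes, and DESeq2 and limma called none. An unadjusted p under 0.05 was found for 5 of the 8, beside 3472 of 13794 genes. The Hmox1 value was 0.47 higher in BXD (SE 0.18, adjusted p = 0.0793) and that of Blvrb 0.15 higher (SE 0.06, adjusted p = 0.0985). Against the other inbred strains, BXD strains were lower in Slc48a1 (-0.23, SE 0.05, adjusted p = 0.0012) and Flvcr1 (-0.28, SE 0.09, adjusted p = 0.0244), 2 of 8 beside 17.7% of all genes and 10.4% called lower. With limma on log2(TPM + 1) neither passed (-0.17, adjusted p = 0.105 and -0.16, adjusted p = 0.12). Family medians of Slc48a1 were 43.9 CPM in BXD and 50.5 CPM in other inbred strains, and those of Flvcr1 4.89 and 6.33 CPM, with wide overlap. Without BXD65/RwwJ the same 2 members passed against the other inbred strains and none against AXB/BXA.

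Across the 114 strains, 14 of the 28 pairs of members were correlated in log2 CPM at an adjusted p under 0.05 (Pearson's r, permutation test, Benjamini-Hochberg over 28 pairs), all of them positively, and 15 by Spearman's rho. Without BXD65/RwwJ these counts were 14 and 15. The lowest r called over all strains was 0.28. How many pairs of other genes would pass was not computed, so the counts cannot be read as particular to these genes. The strains of a recombinant inbred family share parents and are not fully independent. Hpx and Hp were the closest pair (r = 0.88, rho = 0.83, permutation p = 1e-05 for each, the smallest the resampling can give, adjusted 4.67e-05 for each). Their r was 0.91 within BXD, 0.74 within AXB/BXA and 0.91 within other inbred strains, and 0.85 without BXD48/RwwJ and BXD27/TyJ, the strains farthest from the median of Hpx. On log2 CPM, Hmox1 was correlated with 5 members, all but the reductases: Hpx (r = 0.53, rho = 0.57), Cd163 (0.52, 0.57), Slc48a1 (0.50, 0.46), Flvcr1 (0.49, 0.48) and Hp (0.44, 0.45), each at a permutation p of 1e-05 and an adjusted p of 4.67e-05 for both r and rho. Without NOD/ShiLtJ and BXD34/TyJ, the strains farthest from its median, these r were 0.50, 0.50, 0.49, 0.47 and 0.43.

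Within families the picture was uneven. Hmox1 and Cd163 had r = 0.71 within BXD, 0.44 within AXB/BXA and 0.47 within other inbred strains, and the AXB/BXA value did not pass (adjusted permutation p = 0.31). Hmox1 and Flvcr1 had 0.53, 0.08 and 0.50, and Hmox1 and Hpx 0.45, 0.37 and 0.62. In all, 11 pairs were called within the 56 BXD strains, 12 within the 31 other inbred strains and 1, Hpx with Hp, within the 20 AXB/BXA strains. The lowest r called was 0.32, 0.43 and 0.74 in that order, so the counts also depend on the number of strains. Whether r differed between families was not tested. For the reductases the calls depended on the scale. On log2 CPM Blvra passed with no member. On log2(TPM + 1) it passed with Slc48a1 (r = 0.47, adjusted permutation p = 3.11e-05), Hmox1 (0.26, adjusted permutation p = 0.00966), Flvcr1 (0.26, adjusted permutation p = 0.00911) and Hpx (0.24, adjusted permutation p = 0.0154). On that scale 20 of the 28 pairs passed by r. Blvrb passed on log2 CPM with Slc48a1 alone (r = 0.39, rho = 0.27, permutation p = 4e-05 and 0.00329, adjusted 1.24e-04 and 0.0068), and its r was 0.31 without BXH2/TyJ and BTBR T<+> tf/J and 0.17 within BXD. On log2(TPM + 1) it passed with Slc48a1 (0.51, adjusted permutation p = 3.11e-05) and with Flvcr1 (0.31, adjusted permutation p = 0.00142). Cd163 and Slc48a1, both of the macrophage route of heme uptake, had r = 0.00 (rho = 0.04, adjusted permutation p = 0.969 and 0.811).

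**Figure D4:**
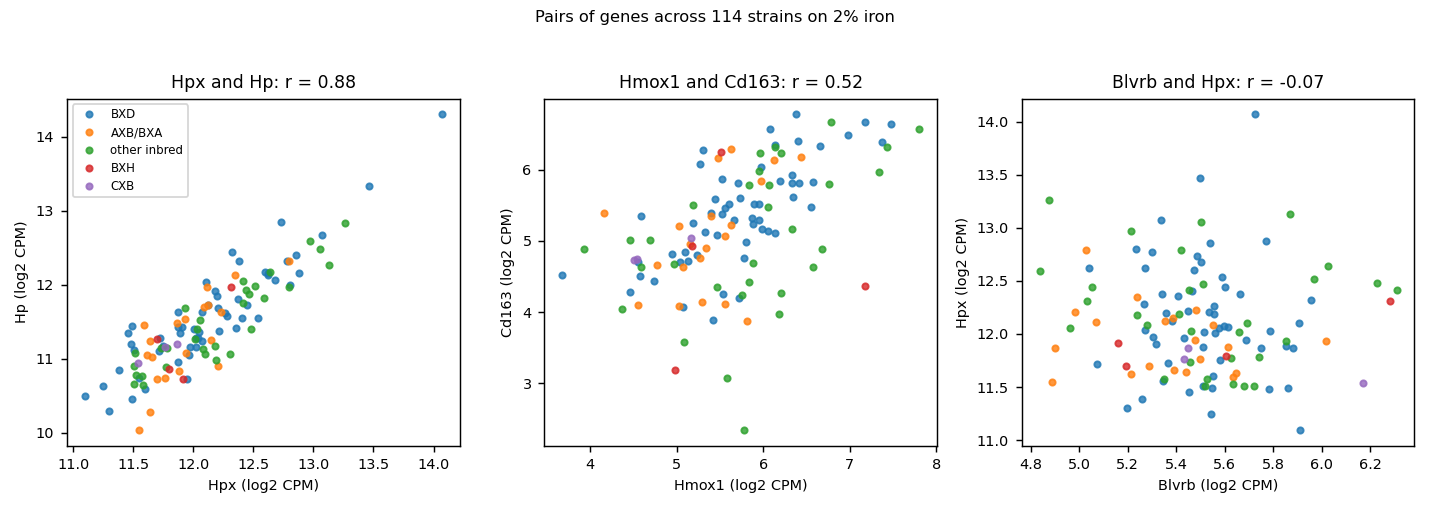
Log2 CPM of pairs of members in 114 strains, with colours for families. Hpx and Hp lie near one line (r = 0.88), Hmox1 and Cd163 scatter more widely (r = 0.52), and Blvrb and Hpx show no slope (r = -0.07).

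Marker lists were then set beside each member over the same strains, as the mean log2 CPM of each list, in 32 relations adjusted together, of which 22 passed by r. The lowest r that passed was 0.20, and how many other genes would pass was not computed. Hp and Hpx followed the acute phase genes most closely (r = 0.82 and 0.79, rho = 0.75 and 0.69, permutation p = 1e-05 and adjusted 2.91e-05 for each), with r of 0.87 and 0.87 within BXD, 0.68 and 0.74 within AXB/BXA and 0.74 and 0.68 within other inbred strains. Hmox1 was correlated with the neutrophil genes (r = 0.67, rho = 0.67), the Kupffer cell genes (0.57, 0.62) and the erythroid genes (0.48, 0.50), each at a permutation p of 1e-05 and an adjusted p of 2.91e-05. Within AXB/BXA the value passed for Kupffer cell genes (0.69, adjusted permutation p = 0.00949) and not for neutrophil (0.36, adjusted permutation p = 0.451) or erythroid genes (0.06, adjusted permutation p = 0.966). Hpx was also correlated with the neutrophil genes (r = 0.67, rho = 0.67) and, less, with Kupffer cell genes (0.36, 0.39). Cd163 was correlated with the Kupffer cell genes (r = 0.62, rho = 0.63, permutation p = 1e-05, adjusted 2.91e-05; within families 0.61, 0.50 and 0.65, the AXB/BXA value not passing at an adjusted permutation p of 0.157) and not with the erythroid genes (0.12, 0.13, adjusted permutation p = 0.232 and 0.219). Slc48a1 was correlated with the erythroid genes (0.41, 0.33, permutation p = 2e-05 and 3.6e-04, adjusted 4.92e-05 and 8.23e-04), with 0.33 within BXD, -0.22 within AXB/BXA and 0.62 within other inbred strains. Blvra passed with the Kupffer cell genes over all strains, but not without BXD65/RwwJ (r = 0.19, adjusted permutation p = 0.0653). It did not pass either without the 2 strains farthest from its median (r = 0.18, adjusted permutation p = 0.0834). Blvrb was correlated with none of the lists over all strains. On log2(TPM + 1), 25 of the 32 relations passed. Within BXD its r with the erythroid genes was -0.34 (adjusted permutation p = 0.0196). The acute phase sum ran from 9517 to 52915 CPM over libraries, the Kupffer sum from 267 to 1150 CPM, the erythroid sum from 3.76 to 2663 CPM and the neutrophil sum from 1.94 to 155.6 CPM. Up to 6 of the 8 neutrophil genes and up to 5 of the 9 erythroid genes were at 0 in a library. The means of these lists thus rest partly on counts at or near 0.

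**Figure D5:**
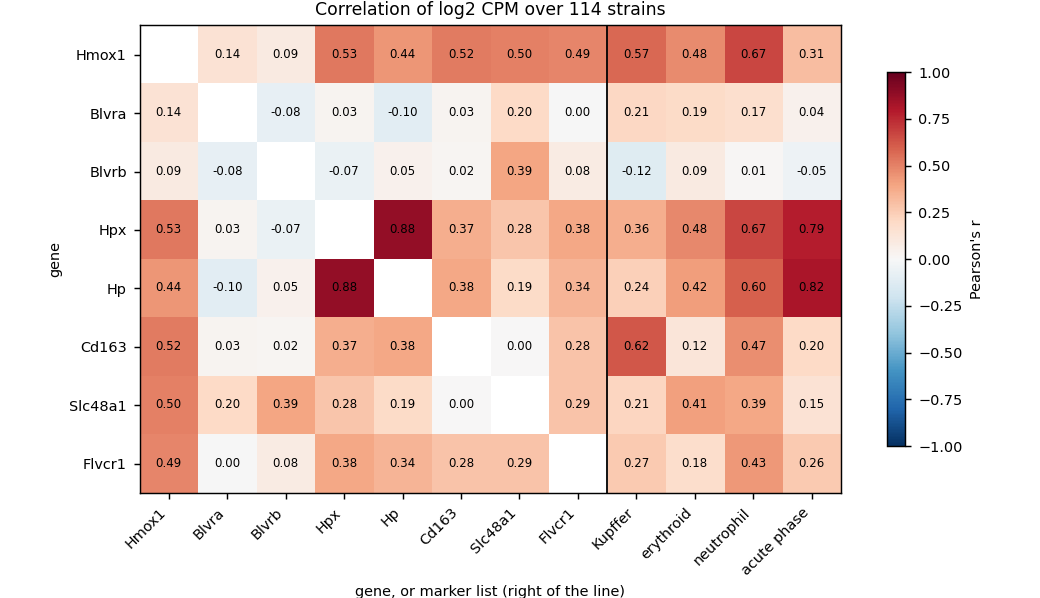
Pearson's r of log2 CPM over 114 strains between the 8 genes (left of the line) and between each gene and the mean of 4 marker lists (right of it). The warm block joins Hpx, Hp and the acute phase genes (0.79 to 0.88), and the Blvra and Blvrb lines are pale apart from Blvrb with Slc48a1 (0.39).

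The genes most like each member were ranked by r over the 114 strains among 13943 genes, as a description without a test, since all values come from the same libraries. For Hmox1 they were Pkm (0.83), the glycolytic enzyme pyruvate kinase M, Itgb3 (0.80), an integrin subunit, and Csf2rb (0.78), the shared receptor chain of several cytokines. For Cd163 they were Vcam1 (0.73), an adhesion molecule, Csf2rb2 (0.70) and Sema6d (0.70). Csf2rb and Csf2rb2 are near-identical copies whose reads can be split between them. For Hpx and Hp, each had the other first (0.88), followed by the same 2 genes, Lcn2 (0.85 and 0.87), an iron-siderophore binding protein, and Cp (0.84 and 0.82), the ferroxidase ceruloplasmin. Both of these belong to the acute phase list. For Slc48a1 they were Bax (0.62), Prpf19 (0.60) and Cc2d1b (0.60), for Flvcr1 Adcy1 (0.64), Eif1a (0.64) and Dusp8 (0.63), for Blvrb Ebna1bp2 (0.59), Pa2g4 (0.56) and Btf3 (0.52), and for Blvra Blnk (0.51), Cep152 (0.49) and Mlkl (0.47). The closest genes of the reductases were thus less close than those of Hmox1 and the plasma scavengers.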

How the data were processed

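Expected counts per gene, and TPM for the same genes and mice, were deposited by the authors as tables with 1 column per mouse. The submitters' processing notes name kallisto 0.46 and the mm10 build. The authors' TPM carry a correction for transcript length and depth, and the deposited counts are not normalized. The planned count test takes whole counts, and expected counts were rounded for it. Symbols and coordinates are from GENCODE M21 (GRCm38), which held 34845 of 35274 identifiers of the diet table and 35612 of 35711 of the panel table.

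Genes passing filterByExpr were tested with edgeR 4.0.16 (glmQLFit, glmQLFTest, TMM factors) in R 4.3.3, two-sided, with Benjamini-Hochberg adjustment over all genes tested and a call at an adjusted p under 0.05. All 15 diet mice were fitted together without covariates, and 2 strain families at a time with the 129X1/SvJ mice summed. Where no other test is named, p-values and SE of genes are from this one, and a log2 change is the first group minus the second. With 3 mice against 3 an exact permutation test cannot go below 0.1, so none was run. The samples are separate mice, per the labels' protocols, and reads without molecular identifiers carry only counting precision. Correlations used log2 CPM with a prior count of 2 and 100000 permutations, with the mice of 129X1/SvJ averaged. No member's strains fell into separate clusters by a 2-component mixture. Scripts were tested on simulated data.

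Named genes were the members, the called genes of the marker and pathway lists, the 3 most similar genes per member (passing over predicted genes and pseudogenes), the extreme strains, the parents and 129X1/SvJ. Other strains, and ratios within a library, were chosen after their values were seen. The members and lists were chosen with earlier results of these data known. Ahsp, on the erythroid list, was not matched. Alternatives were RLE factors, no filter, DESeq2 1.42.0, limma 3.58.1 on log2(TPM + 1) and log2(TPM + 0.1), the compared groups alone, and each mouse left out in turn. Other steps ran in Python 3.11.15 (pandas 2.3.3, scipy 1.17.1, numpy 2.4.6, matplotlib 3.10.9, scikit-learn 1.9.0).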

Additional observations from a re-analysis of the deposited data

Results flagged for a closer look

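In 2 of the 8 groups of 4 BXH strains examined, 1 group per gene, BXH2/TyJ stood far from the rest. Hmox1 was 144.762 CPM in BXH2/TyJ and 31.3, 35.96 and 45.4 CPM in the other BXH strains, and Slc48a1 was 92.3409 CPM against 38.2, 43.6 and 44.1 CPM. Groups were marked on CPM by the largest gap over the range (0.876 for Hmox1 and 0.890 for Slc48a1). A chance rate of about 1 in 20 such groups assumes normally distributed values, which 4 strains cannot show. On log2 CPM, Hmox1 was 7.18 in BXH2/TyJ against 4.98, 5.17 and 5.51. Slc48a1 was 6.53 against 5.26, 5.45 and 5.47 on that scale. The marks are given for CPM only, and both come from the same single mouse. The same library had the highest summed neutrophil gene level of all strains (155.6 CPM, against 2.68, 4.72 and 2.59 CPM in BXH8/TyJ, BXH10/TyJ and BXH14/TyJ), an erythroid sum of 1226 CPM and a Kupffer sum of 365 CPM, with 105 strains above it in the last. Its Hmox1 was 39.7% of the Kupffer sum, the highest share of any strain. The part of these cells in its Hmox1 and Slc48a1 levels was not tested.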

How the results depend on the processing

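No paired analysis was possible because replicate numbers only name the mice within a group and no label pairs them. Leaving out single mice gave 2 to 3 members called in 2% iron against chow (4 with all mice) and 1 to 3 against 500 ppm (2 with all mice). In the latter, no filter and the compared groups alone each gave 1. For BXD against other inbred strains, limma gave 0 on both TPM scales, against 2 with edgeR. Log2 changes that turned sign were all uncalled, and the causes were not tested. Over single mice left out, the log2 change in 2% iron against 50 ppm ran from -0.0231 to 0.262 for Blvra and from -0.121 to 0.228 for Hp. Against chow it ran from -0.0552 to 0.208 for Blvra and from -0.178 to 0.163 for Hp, and against 500 ppm from -0.0685 to 0.287 for Hp and from -0.0195 to 0.199 for Flvcr1. In cellulose against 50 ppm Blvrb ran from -0.0845 to 0.0125, and in cellulose against 2% iron Cd163 from -0.0819 to 0.508. In 500 against 50 ppm Hmox1 ran from -0.271 to 1.45 and Hpx from -0.239 to 0.334, each lowest without 500 ppm replicate 2. In chow against 50 ppm Hmox1 ran from -0.00256 to 0.502 and Cd163 from -0.000912 to 0.444. With limma, Flvcr1 against 500 ppm was -0.0678 and -0.104, and Blvrb in cellulose against 50 ppm was 0.0892 and 0.0902, on log2(TPM + 1) and log2(TPM + 0.1). Of the recomputed log2 changes, 539 kept direction and side of the threshold, 29 lost the call, 11 gained one and 19 turned sign, and of the recomputed correlations 271 kept both, 4 lost the call, 12 gained one and 13 turned sign. Those that turned sign had not passed. On log2(TPM + 1) Blvra had r = 0.185 with Blvrb, 0.0486 with Hp and 0.258 with Flvcr1, the last now passing, and Blvrb 0.0721 with Hpx, 0.111 with Kupffer and 0.0349 with acute phase genes. Centred within families, Blvra had -0.00531 with Cd163 and -0.0143 with acute phase genes, and Blvrb -0.00981 with neutrophil genes. Without the 2 farthest strains Blvrb had -0.0299 with Flvcr1, -0.0106 with erythroid and -0.113 with neutrophil genes, and without BXD65/RwwJ Blvra had 0.00182 with Flvcr1. Leaving 500 ppm replicate 2 out of the shared fit, an alternative chosen after seeing the data, gave 4 members called in each comparison of a 2% diet with chow or 50 ppm that was run. Shares of all genes called were taken with all mice only, so the counts without a mouse have none beside them. RLE factors moved the median of all genes by at most 0.01, and limma on log2(TPM + 1) by 0.12 in cellulose against 50 ppm. Depth limits Flvcr1 most, at 22 to 86 reads in a diet mouse.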
